A study of Mus musculus with 8 samples.

Results

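The subunits by which progenitor and neuronal BAF complexes differ were examined in mouse cortex lacking the BAF scaffolding subunits BAF155 and BAF170. The genes were chosen by name, as 10 of the 48709 genes in the count files, and all 10 passed the filter on low counts. They were Actl6a, Phf10 and Ss18 of the progenitor assembly, Actl6b, Dpf1, Dpf3 and Ss18l1 of the neuronal assembly, and Dpf2, Bcl7a and Bcl7c, which are not restricted to either. RNA sequencing covered the P3 cortex (named as the dorsal telencephalon, dTel, in the methods) of 4 dcKO_hGFAP-Cre and 4 control mice on a C57BL/6J background. The dcKO_hGFAP-Cre genotype is BAF155 fl/fl; BAF170 fl/fl; hGFAP-Cre pos/+. The methods describe controls of the study as BAF155 fl/+; BAF170 fl/+; Cre pos/+, so that they also carry Cre and can lose 1 copy of each gene, whereas the series text calls the sequenced controls wild type. The hGFAP-Cre line expresses Cre recombinase under a human GFAP promoter in radial glia of the dTel. Any neurons born before Cre became active, and cells of other origins (microglia, vessels, immigrant interneurons), would then keep both genes. Recombination by cell type was not measured in these data. The dissected tissue holds all of these cells, and in such bulk samples fewer cells of a type and less RNA per cell cannot be told apart.

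The BAF (mSWI/SNF) complex uses the energy of ATP to move nucleosomes and is built from subunits that often come in alternative forms. As neural progenitors leave the cell cycle, several of these forms are exchanged. BAF53a (Actl6a), an actin-related protein, gives way to BAF53b (Actl6b). BAF45a (Phf10), which carries PHD fingers that bind histone tails, gives way to BAF45b (Dpf1) and BAF45c (Dpf3), while the related BAF45d (Dpf2) is widely expressed. The transcriptional coactivator SS18 gives way to its homologue CREST (Ss18l1). In neurons, the microRNAs miR-9-3p (also known as miR-9*) and miR-124 repress Actl6a, and the genes of both microRNAs are themselves repressed by REST in progenitors.

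The microRNA and its site in Actl6a are given first because this pairing is a known route by which the progenitor subunit is repressed in neurons. The mature mmu-miR-9-3p is shown 5′ to 3′ with its seed (bases 2 to 8) in capitals, as listed by RefSeq, and below it is the stretch of the Actl6a 3′UTR that holds the reverse complement of this seed in capitals (GRCm38, chr3:32726629-32726657, plus strand).
mmu-miR-9-3p: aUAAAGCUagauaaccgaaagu
Actl6a site: tcaacgtctgtAGCTTTAgtacactcagg
For each gene, the annotated 3′UTR of its longest protein-coding transcript was read. The site occurred once in the 371 bases of the Actl6a 3′UTR, and the same letters were not in that of any other of the 10 genes. The 3′UTRs of the 10 genes ran from 72 bases (Bcl7c) to 3903 bases (Bcl7a). Over all 20981 3′UTRs read in this way, 11.1% held the site, and the median length was 937 bases. The seed site of the other arm, mmu-miR-9-5p, was in none of the 10 and in 12.1% of all 3′UTRs. The mature miR-124 sequence was not used here.

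The promoters of the actin-related pair and of both DPF members of the neuronal assembly are shown next, since Actl6a, Dpf1 and Dpf3 are among the members whose mRNA level differed between the groups. Each runs from 250 bases before to 50 bases after the RefSeq start site (GRCm38.p6), 5′ to 3′ in the direction of the gene, at chr3:32708296-32708595 on the plus strand for Actl6a, chr5:137553296-137553595 on the plus strand for Actl6b, chr7:29303755-29304054 on the plus strand for Dpf1 and chr12:83487687-83487986 on the minus strand for Dpf3. Capitals mark GC boxes (GGGCGG) and CCAAT boxes (CCAAT), each searched on both strands, with overlapping copies of a motif counted separately.
Actl6a: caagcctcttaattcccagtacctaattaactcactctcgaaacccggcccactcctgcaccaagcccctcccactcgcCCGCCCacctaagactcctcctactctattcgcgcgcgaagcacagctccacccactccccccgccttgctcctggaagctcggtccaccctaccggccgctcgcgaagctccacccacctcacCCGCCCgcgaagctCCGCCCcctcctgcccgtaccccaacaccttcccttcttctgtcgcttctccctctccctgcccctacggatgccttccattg
Actl6b: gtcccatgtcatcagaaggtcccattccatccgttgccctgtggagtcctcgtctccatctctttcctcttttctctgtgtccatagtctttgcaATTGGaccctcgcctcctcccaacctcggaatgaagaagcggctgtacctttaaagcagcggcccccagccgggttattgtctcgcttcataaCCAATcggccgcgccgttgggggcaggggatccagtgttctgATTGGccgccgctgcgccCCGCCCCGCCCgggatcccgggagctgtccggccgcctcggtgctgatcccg
Dpf1: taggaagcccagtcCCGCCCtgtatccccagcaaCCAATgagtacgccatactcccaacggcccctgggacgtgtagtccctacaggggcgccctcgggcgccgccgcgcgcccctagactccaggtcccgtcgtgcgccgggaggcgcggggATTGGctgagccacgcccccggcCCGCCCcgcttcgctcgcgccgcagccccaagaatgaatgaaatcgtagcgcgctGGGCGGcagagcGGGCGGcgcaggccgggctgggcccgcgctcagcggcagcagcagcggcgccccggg
Dpf3: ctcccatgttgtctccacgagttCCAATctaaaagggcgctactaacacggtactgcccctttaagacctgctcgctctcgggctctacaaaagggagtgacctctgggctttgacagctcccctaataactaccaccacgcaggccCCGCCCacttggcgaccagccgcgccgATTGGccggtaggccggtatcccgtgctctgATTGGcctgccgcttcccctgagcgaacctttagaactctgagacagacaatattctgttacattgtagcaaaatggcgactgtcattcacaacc
The Actl6a promoter held 3 GC boxes and 0 CCAAT boxes. Those of Actl6b, Dpf1 and Dpf3 held 3, 2 and 3 CCAAT boxes and 2, 4 and 1 GC boxes. Promoters of 8 members were examined, without Bcl7a and Ss18. Of these 8, CCAAT was found in 4 (Actl6b, Dpf1, Dpf3 and Dpf2) and GGGCGG in 7 (not in Dpf2), beside 37.4% and 35.7% of all 32851 promoters. TATAAA was in none of the 8 and in 13.6% of all promoters. Between 17 and 62 CpG dinucleotides lay in the 8 promoters, against a median of 7 over all promoters. These matches describe the letters only.

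The libraries held between 21126713 and 32110285 counts, and both groups were present on each of the 3 lanes. The targeted genes were lower in each of the 4 mutants than in any control, with a log2 fold change of -0.97 for Smarcc1 (BAF155; adjusted p = 5.44e-06) and -0.77 for Smarcc2 (BAF170; adjusted p = 2.28e-05). Every adjusted p is that of the quasi-likelihood test of edgeR after Benjamini-Hochberg correction across all genes. Reads of exons outside the floxed part and of cells without Cre remain in these counts. Markers of cortical projection neurons were well detected in control cortex, with 249 to 299 CPM (counts normalized for library size) for Neurod2. Mutant replicates 1 and 2 stood apart with 584 and 1128 CPM of the choroid plexus gene Ttr, against at most 15.8 CPM in the other 6 libraries, and mutant replicate 3 with 273 CPM of the astrocyte gene Gfap, against 24.2 to 89.5 CPM elsewhere. Mitochondrial transcripts took 3.57 to 5.47% of the counts in mutants and 2.06 to 3.23% in controls.

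The question for the 10 genes was whether the balance between progenitor and neuronal subunits differed when both scaffolds were deleted. Of the 10, 5 passed the threshold of an adjusted p of 0.05 in edgeR, beside 37.5% of the 16525 genes tested. Ss18 and Actl6a rose in dcKO_hGFAP-Cre cortex (18.6% of all genes were called higher), and Dpf3, Bcl7a and Dpf1 fell (18.9% were called lower). Thus, 2 of the 3 progenitor members rose and 2 of the 4 neuronal members fell, while Phf10, Actl6b, Ss18l1, Dpf2 and Bcl7c did not pass the test. The 4 mutants did not overlap the 4 controls in 4 of the 10 genes (Ss18, Dpf1, Ss18l1 and Bcl7a), beside 34.4% of all genes. The median absolute log2 fold change was 0.23 over the 10 genes, 0.29 over all genes tested and 0.56 over all called genes. The median log2 fold change was -0.01 over the members and 0.02 over all genes. A share of 5 in 10 is thus to be read against a comparison in which many genes were called and typical changes were at least as large. Scaling by library totals, which shifted the median change of the whole table by 0.12 on the log2 scale, gave 1 member lower and 5 higher in place of 3 and 2, and 2102 genes lower and 4584 higher in place of 3128 and 3074.

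**Figure D1:**
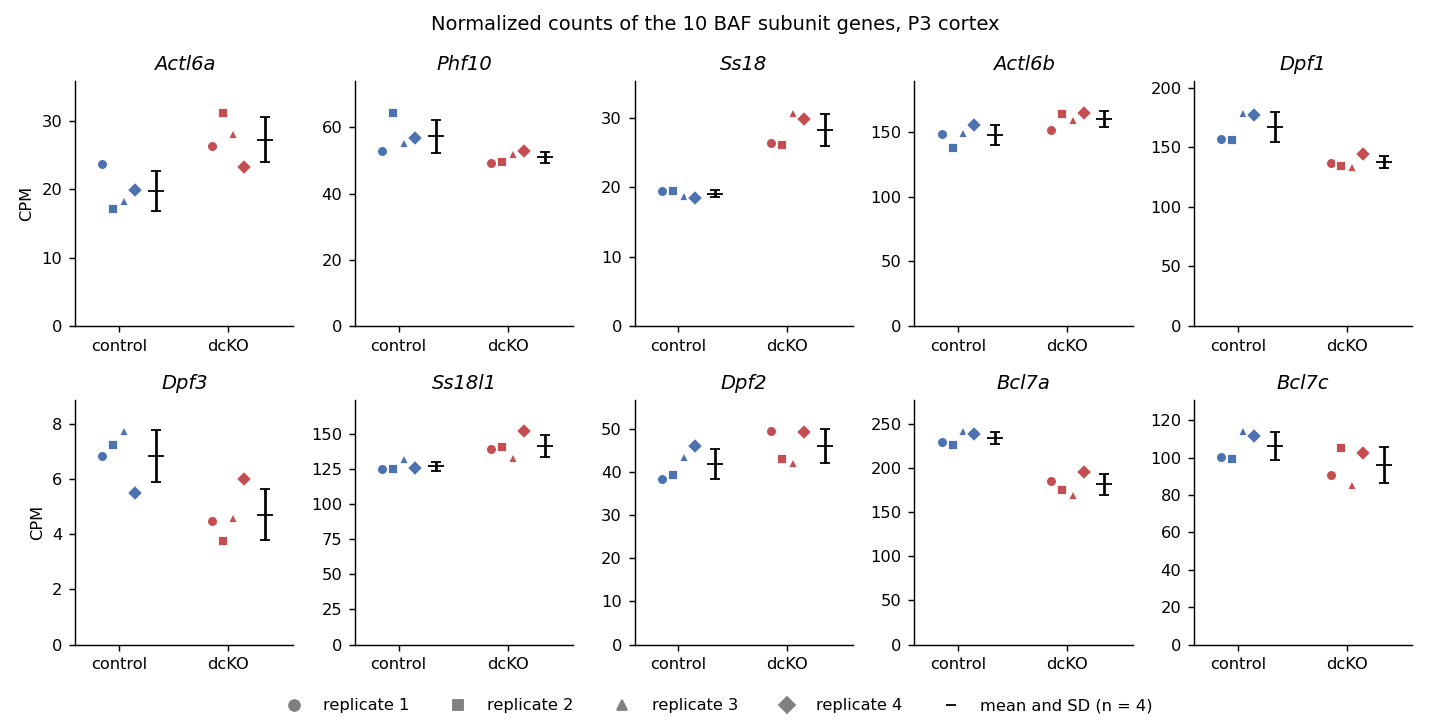
Normalized counts (CPM, y axis from 0) of each of the 10 genes in the 4 control (blue) and 4 dcKO_hGFAP-Cre (red) P3 cortices, with marker shapes for replicate numbers and black bars for the mean and SD. Ss18 (18.5 to 19.5 CPM in controls, 26.2 to 30.7 CPM in mutants) and Bcl7a (227 to 242 and 169 to 196 CPM) show groups that do not overlap, whereas Phf10 and Bcl7c overlap.

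Levels were first compared between the genes per length, as CPM per kb of annotated exons. In control cortex the neuronal members Actl6b, Dpf1 and Ss18l1 led the order with 34.6 ± 1.76, 31.1 ± 2.33 and 29.2 ± 0.775 CPM per kb (SD, n = 4). Neighbours among these 3 had overlapping ranges. Bcl7a (24.7 ± 0.728), Bcl7c (14.7 ± 1.05) and the progenitor member Phf10 (11.7 ± 1.01 CPM per kb) followed, each below the range of the one before. Dpf2 and Actl6a came next with 6.42 ± 0.54 and 5.06 ± 0.745 CPM per kb and overlapped each other. Ss18 (2.02 ± 0.0529) and Dpf3 (1.62 ± 0.225 CPM per kb) were the lowest and did not overlap. At P3 the cortex therefore held more mRNA per length of Actl6b than of Actl6a and of Ss18l1 than of Ss18, while Dpf3 was the exception among the neuronal members. In mutants Actl6b again led with 37.5 ± 1.43 CPM per kb, Ss18l1 (32.5 ± 1.78) stood above Dpf1 (25.6 ± 0.924) without overlap, and Dpf3 remained lowest at 1.12 ± 0.221 CPM per kb. Divided instead by the longest annotated transcript, the control order began with Dpf1 (52.6), Bcl7a (49.7) and Actl6b (47.6 CPM per kb).

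Of the progenitor members, Ss18, the coactivator subunit of progenitor BAF (ENSMUSG00000037013), had the largest rise of the 10 genes. Control replicates 1 to 4 measured 19.5, 19.5, 18.8 and 18.5 CPM, and mutant replicates 1 to 4 measured 26.4, 26.2, 30.7 and 29.9 CPM. All mutants were above all controls. The log2 fold change was 0.57 (95% interval 0.37 to 0.77, adjusted p = 0.000597), and the exact two-sided permutation p was 0.0286, the smallest that 4 against 4 allow. Within lanes 5, 6 and 7 the log2 difference was 0.43, 0.71 and 0.69, and its call held under each of the 18 alternatives tried.

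Actl6a, the gene with the miR-9-3p site above (BAF53a; ENSMUSG00000027671, chromosome 3 from 32706298 to 32726973), measured 23.7, 17.0, 18.2 and 19.8 CPM in controls and 26.3, 31.1, 28.1 and 23.3 CPM in mutants. Control replicate 1 lay just above mutant replicate 4, so the groups overlapped by this pair. The log2 fold change was 0.47 (95% interval 0.20 to 0.74, adjusted p = 0.0115, edgeR), and the exact permutation p was 0.0571. The log2 difference was 0.50, 0.63 and 0.23 within lanes 5, 6 and 7. Without mutant replicates 1 and 2, the libraries rich in Ttr, it was 0.38 and no longer passed the test (adjusted p = 0.124, edgeR). Exons of Actl6a share 452 bases with Mrpl47 on the opposite strand, which itself did not pass the test (log2 fold change 0.14, adjusted p = 0.328, edgeR). The library kit does not mark strand, so reads from the shared bases cannot be assigned to either gene.

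Phf10, which encodes the PHD finger subunit BAF45a (ENSMUSG00000023883, chromosome 17 from 14945009 to 14961273), did not rise with the other progenitor members. Its values were 52.8, 64.4, 55.4 and 56.8 CPM in controls and 49.4, 49.7, 51.9 and 53.0 CPM in mutants. Only control replicate 1 lay within the range of the mutants. The log2 fold change was -0.17 (95% interval -0.35 to 0.01, adjusted p = 0.125, edgeR), so that a rise as large as that of Ss18 or Actl6a lay outside its interval. It passed the threshold, as a fall, with an offset for GC content and length (-0.18, adjusted p = 0.0485, edgeR). Its exons share 470 bases with 1600012H06Rik on the opposite strand, whose log2 fold change was -0.02 (adjusted p = 0.879, edgeR).

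Among the neuronal members, Dpf1 and Dpf3 fell and Actl6b and Ss18l1 did not pass the test. Dpf1 encodes BAF45b (ENSMUSG00000030584, chromosome 7 from 29303951 to 29318243). It measured 156.8, 155.9, 178.8 and 177.3 CPM in controls and 137.0, 134.6, 133.5 and 144.5 CPM in mutants, without overlap. The log2 fold change was -0.28 (95% interval -0.45 to -0.12, adjusted p = 0.0113, edgeR; exact permutation p = 0.0286), with -0.20, -0.42 and -0.30 within lanes 5, 6 and 7. The call was lost with library totals (-0.16, adjusted p = 0.0828) and without mutant replicates 1 and 2 (-0.27, adjusted p = 0.0978, both edgeR).

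Dpf3 encodes BAF45c, which also acts in heart and muscle (ENSMUSG00000021221, chromosome 12 from 83213745 to 83487716). It was the least abundant of the 10 genes, with 89 to 233 counts per library. Control values were 6.86, 7.25, 7.74 and 5.52 CPM and mutant values 4.49, 3.77, 4.61 and 6.01 CPM. Mutant replicate 4 lay above control replicate 4, and both came from lane 7, where the log2 difference was 0.12 against -0.77 and -0.75 in lanes 5 and 6. The fall therefore did not hold within lane 7, which has 1 library of each group. Over all libraries the log2 fold change was -0.53 (95% interval -0.90 to -0.16, adjusted p = 0.0289, edgeR), and the exact permutation p was 0.0571. The call was lost when control replicate 2 (adjusted p = 0.0703), control replicate 3 (0.0908), mutant replicate 1 (0.0739) or mutant replicate 2 (0.0831) was left out, without mutant replicates 1 and 2 together (-0.36, adjusted p = 0.254), and with library totals (-0.41, adjusted p = 0.0765, all edgeR).

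Actl6b, which encodes the neuron-restricted BAF53b (ENSMUSG00000029712, chromosome 5 from 137553517 to 137569582), measured 148.4, 137.3, 148.8 and 155.4 CPM in controls and 151.3, 164.1, 159.4 and 164.5 CPM in mutants. The ranges overlapped through control replicate 4 and mutant replicate 1. The log2 fold change was 0.12 (95% interval -0.04 to 0.27, adjusted p = 0.216, edgeR), which leaves out a fall of the size seen for Dpf1.

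Ss18l1, the gene of the calcium-responsive coactivator CREST (ENSMUSG00000039086, chromosome 2 from 180042509 to 180070201), measured 125.1, 124.8, 131.9 and 125.5 CPM in controls and 138.9, 140.5, 133.0 and 151.6 CPM in mutants. All mutants were above all controls, although mutant replicate 3 and control replicate 3, which share lane 6, differed by only 0.01 on the log2 scale. The log2 fold change was 0.15 (95% interval 0.001 to 0.30) and did not pass the adjusted threshold (adjusted p = 0.103, edgeR; exact permutation p = 0.0286). It passed with library totals (0.27, adjusted p = 0.00666) and with the GC content and length offset (0.23, adjusted p = 0.00545, both edgeR). Actl6b and Ss18l1 thus had positive estimates, and Dpf1 and Dpf3 negative ones, under every setting tried.

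Of the members not restricted to either assembly, Bcl7a fell and Dpf2 and Bcl7c did not pass the test. Bcl7a, one of a family of small BAF subunits (ENSMUSG00000029438, chromosome 5 from 123343834 to 123374992), measured 230.2, 227.0, 241.8 and 238.4 CPM in controls and 185.6, 175.9, 169.4 and 195.8 CPM in mutants, without overlap. Its log2 fold change was -0.37 (95% interval -0.52 to -0.21, adjusted p = 0.00188, edgeR; exact permutation p = 0.0286), it was -0.34, -0.51 and -0.28 within lanes 5, 6 and 7, and its call held under each of the 18 alternatives. The related Bcl7c (ENSMUSG00000030814, chromosome 7 from 127661456 to 127708933) ranged from 99.3 to 114 CPM in controls and from 85.2 to 105 CPM in mutants. Its log2 fold change was -0.15 (95% interval -0.34 to 0.04, adjusted p = 0.208, edgeR) and turned to 0.04 with the GC content and length offset. For Bcl7b, the third family gene, the estimate was 0.07 (adjusted p = 0.655, edgeR). Dpf2, the widely expressed BAF45d (ENSMUSG00000024826, chromosome 19 from 5896516 to 5913010), measured 38.4, 39.3, 43.4 and 45.9 CPM in controls and 49.34, 43.05, 41.96 and 49.30 CPM in mutants. Its ranges overlapped, with a log2 fold change of 0.14 (95% interval -0.065 to 0.34, adjusted p = 0.268, edgeR), and it passed the threshold with library totals (0.26, adjusted p = 0.0375, edgeR).

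The exchange was also read as 6 ratios of a neuronal to a progenitor or unrestricted subunit within each library, as log2 of counts per kb after adding 0.5 counts. Such ratios are free of the scaling between libraries and are given without a test. For Actl6b over Actl6a, controls gave 2.51, 2.88, 2.90 and 2.83 and mutants 2.39, 2.26, 2.37 and 2.69, each in the order of replicates 1 to 4. Control replicate 1 was below mutant replicate 4, and the group means were 2.78 ± 0.18 and 2.43 ± 0.18 (SD, n = 4). Ss18l1 over Ss18 was 3.80, 3.79, 3.93 and 3.88 in controls and 3.51, 3.54, 3.23 and 3.46 in mutants. Here the groups did not overlap, and the mean ratio was 14.4 in controls and 10.8 in mutants.

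The ratio of Dpf1 to Dpf2 was 2.30, 2.26, 2.32 and 2.22 in controls and 1.75, 1.92, 1.94 and 1.83 in mutants on the log2 scale, a mean difference of -0.42 with no overlap. Dpf3 over Dpf2 averaged -1.99 ± 0.29 in controls and -2.67 ± 0.22 in mutants, with control replicate 4 (-2.43) inside the range of the mutants. Taken against Phf10 in place of Dpf2, the differences were smaller. Dpf1 over Phf10 was 1.41 ± 0.19 in controls and 1.30 ± 0.05 in mutants, and Dpf3 over Phf10 was -2.85 ± 0.23 and -3.23 ± 0.24, both with overlapping groups. All 6 mean ratios were lower in the mutant, by 0.11 to 0.68 on the log2 scale. Of the 6, 2 separated the groups, beside 34.4% of all single genes tested. No such share was taken over other pairs of genes. The ratios share genes, so they are not 6 separate measurements.

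**Figure D2:**
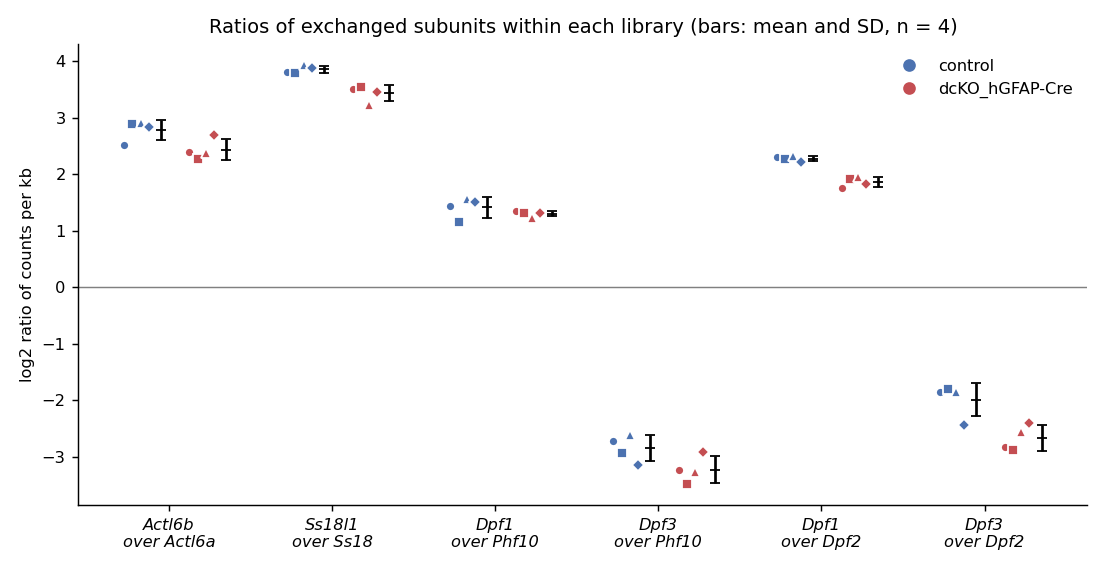
Log2 ratio of counts per kb of exon (y axis) for 6 pairs of a neuronal over a progenitor or unrestricted (Dpf2) subunit. Points are control (blue) and dcKO_hGFAP-Cre (red) libraries, with marker shapes for replicates 1 to 4. Black bars give the mean and SD of 4 libraries. Ss18l1 over Ss18 and Dpf1 over Dpf2 show no overlap, and the 4 other pairs overlap.

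The other BAF subunits give the setting for these differences. Of 18 subunit genes outside the members and the deleted pair, 3 fell, 2 rose and 13 did not pass the test. Over all genes tested, 18.9% were called lower and 18.6% higher. The median log2 fold change was -0.04 over the 18 genes and 0.02 over all genes tested. Bcl11a, a zinc finger subunit of neural BAF, had the largest fall (-0.80, adjusted p = 0.000139), followed by Smarca2 (-0.36, adjusted p = 0.00162), the BRM ATPase, and Smarcd2 (-0.30, adjusted p = 0.0351, all edgeR). Smarcd3, which encodes BAF60c, had the largest rise (0.61, adjusted p = 8.5e-05), and Smarce1, which encodes BAF57, rose by less (0.25, adjusted p = 0.0307, both edgeR). Like the members, Smarcd3 belongs to a set of alternative subunits. It measured 76.3 to 90.4 CPM in controls and 123 to 131 CPM in mutants. Of its alternatives, Smarcd2 was lower (above) and Smarcd1 did not pass the test (-0.08, adjusted p = 0.38, edgeR). With library totals, Smarcd1 turned to 0.04 (adjusted p = 0.62, edgeR). The call of Smarce1 was lost under 10 of the 18 alternatives, among them leaving out any 1 control or mutant replicate 2 or 3 (adjusted p from 0.0501 to 0.0871). That of Smarcd2 was lost under 9, among them leaving out control replicate 3 or 4 or mutant replicate 1, 3 or 4 (adjusted p from 0.0531 to 0.0881, both edgeR).

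**Figure D3:**
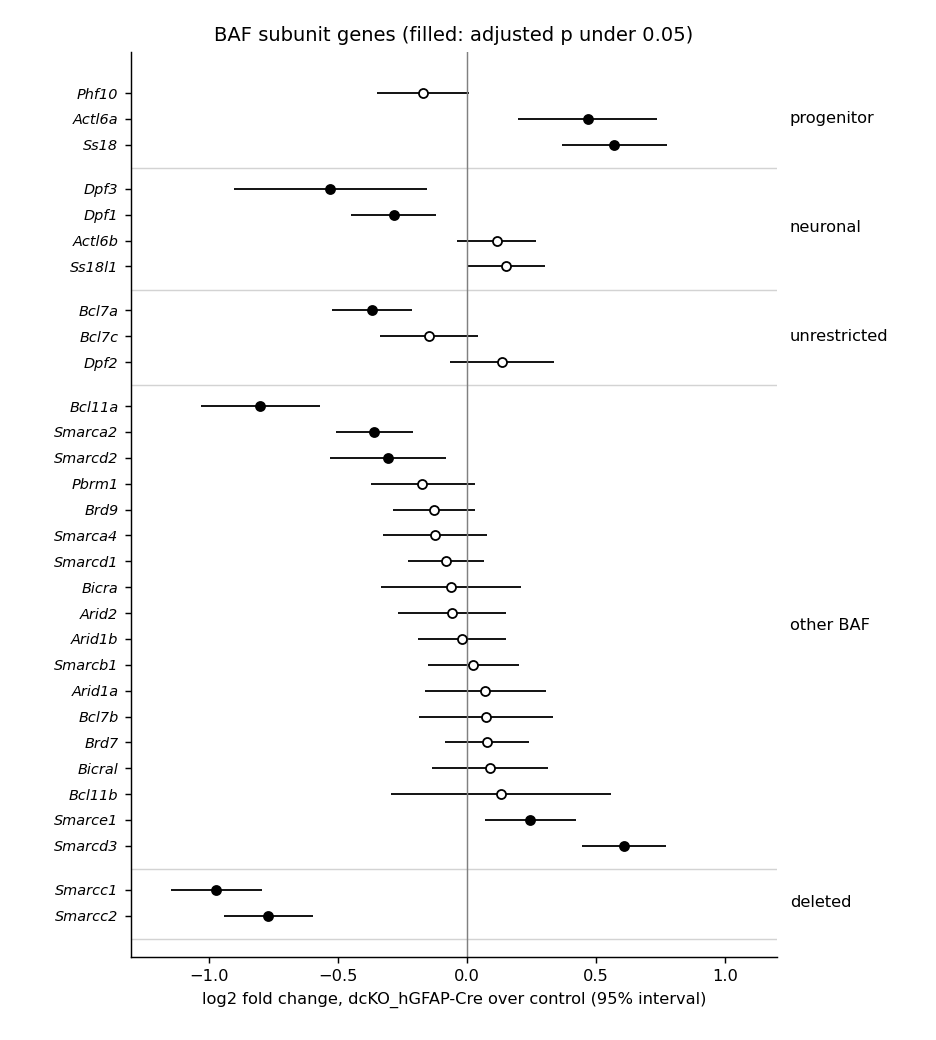
Log2 fold change of dcKO_hGFAP-Cre over control (x axis, with 95% intervals from the edgeR fit, not adjusted for the number of genes) for the 10 members by assembly, 18 other BAF subunits and both deleted subunits, with filled points for an adjusted p under 0.05. Ss18 (0.57) and Actl6a (0.47) lie to the right and Dpf3 (-0.53), Bcl7a (-0.37) and Dpf1 (-0.28) to the left of 0, all nearer to 0 than Smarcc1 (-0.97).

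Known regulators of the exchange were read from the same fit. Of 10 tested genes of this list, 2 rose, 2 fell and 6 did not pass the test, beside 18.6% of all genes called higher and 18.9% called lower. The number higher depended on the scaling, with 5 under library totals and 4 under the GC content and length offset. Rest, the repressor of neuronal genes including those of miR-9 and miR-124, measured 8.96 to 11.1 CPM in controls and 12.3 to 15.1 CPM in mutants, a log2 fold change of 0.42 (adjusted p = 0.0136, edgeR). The call was lost without mutant replicate 2 (0.35, adjusted p = 0.0516, edgeR). The host transcripts of the microRNAs differed in direction. Mir124a-1hg fell from 64.7 to 95.6 CPM in controls to 47.6 to 59.3 CPM in mutants (-0.53, adjusted p = 0.00471), and C130071C03Rik, which holds the Mir9-2 hairpin on its strand, fell by 0.38 on the log2 scale (adjusted p = 0.00313, both edgeR). Mir124-2hg rose from 66.1 to 72.6 CPM in controls to 74.1 to 105 CPM in mutants (0.40, adjusted p = 0.0112), a call lost without mutant replicate 1 (0.33, adjusted p = 0.0516, both edgeR). For Mir9-3hg the estimate was -0.19 (adjusted p = 0.376, edgeR). Without mutant replicates 1 and 2 together, 1 gene of the list was lower and 0 higher, and without mutant replicate 3 alone 4 were higher. These are polyadenylated host transcripts, and the mature microRNAs were not measured. The splicing repressor Ptbp1 was at 0.21 (adjusted p = 0.0927) and its neuronal paralogue Ptbp2 at 0.15 (adjusted p = 0.135, both edgeR), and the REST corepressors Rcor1, Rcor2 and Sin3a did not pass the test. With library totals, Rcor1 (0.43, adjusted p = 0.0499), Ptbp1 (0.33, adjusted p = 0.0158) and Ptbp2 (0.27, adjusted p = 0.0136, all edgeR) were called higher. With the GC content and length offset, Rcor1 (0.45, adjusted p = 0.0275) and Ptbp1 (0.23, adjusted p = 0.0496, both edgeR) were called higher, and Ptbp2 turned to -0.08 without a call. Mir9-2 itself had no counts in any library, and Mir9-1hg could not be matched by its symbol.

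The subunits are exchanged between cell types, so the markers of these types are given beside them. Each count of these lists stands beside 18.6% of all genes called higher and 18.9% called lower. Of 12 pan-neuronal genes, 10 fell and none rose, with a median log2 fold change of -0.56, and the list summed to 11800 to 12900 CPM in controls and 8750 to 9410 CPM in mutants. Rbfox3, which encodes the neuronal nuclear protein NeuN, fell by 1.12 on the log2 scale (adjusted p = 2.19e-06), and Nefm, a neurofilament gene, had the largest fall (-1.38, adjusted p = 8.83e-06, both edgeR). Of the neuronal members, Dpf1 (-0.28) and Dpf3 (-0.53) were also lower, whereas Actl6b (0.12) and Ss18l1 (0.15) had positive estimates without a call. Projection neuron markers fell in 9 of 10 genes (median -0.90), the defining Neurod2 by 0.43 on the log2 scale, and summed to 2010 to 2320 CPM in controls and 1050 to 1240 CPM in mutants. Interneuron markers rose in 9 of 10 genes (median 0.72), Gad1 by 0.87, and summed to 629 to 660 CPM in controls and 985 to 1050 CPM in mutants.

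Progenitor markers were less uniform. Of 12 cycling cell genes, 4 rose and none fell, with a sum of 240 to 282 CPM in controls and 264 to 307 CPM in mutants. The proliferation gene Mki67, the defining marker, was at -0.14 (adjusted p = 0.391, edgeR), and the mitotic kinase gene Bub1 was highest at 0.58 (adjusted p = 0.0128, edgeR). The 4 rises became 2 when control replicate 2 or 4 or mutant replicate 1, 2 or 3 was left out, and 0 without mutant replicates 1 and 2 together. Of 12 radial glia and astrocyte genes, 3 rose and 1 fell, with a sum of 1800 to 1830 CPM in controls and 1390 to 2820 CPM in mutants. The stem cell factor Sox2 rose by 0.71 and Pax6 by 1.28, whereas Nes fell by 0.84 on the log2 scale, and without mutant replicate 3, the library rich in Gfap, 6 of these genes fell (4 with the lane block and 3 with the replicate block). Of 5 intermediate progenitor genes tested, 4 rose, the proneural gene Neurog2 by 2.71 and the defining Eomes by 0.70, and the list summed to 41.3 to 56.1 CPM in controls and 60.8 to 81.4 CPM in mutants. The call of Eomes was lost when control replicate 2, 3 or 4 or mutant replicate 1 or 2 was left out (adjusted p from 0.0583 to 0.0824, edgeR). Of the progenitor members, Ss18 and Actl6a rose and Phf10 (-0.17) did not, beside progenitor markers that were also mixed. The part of cell composition in the differences of the members was not tested.

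The other lists also moved. All 10 oligodendrocyte lineage genes fell (Pdgfra by 0.47, sum 524 to 564 CPM in controls and 307 to 395 CPM in mutants), as did 5 of 8 endothelial genes (Pecam1 by 0.65, sum 285 to 345 and 152 to 264 CPM). Microglia genes rose in 7 of 10 cases (Aif1 by 1.40, sum 116 to 155 and 210 to 255 CPM) and striatal neuron genes in 7 of 10 (Ppp1r1b by 2.92, sum 289 to 370 and 440 to 798 CPM). Choroid plexus genes rose in 3 of 8, with a sum of 5.31 to 14.9 CPM in controls and up to 1190 CPM in mutants. Over the 18 alternatives, the oligodendrocyte count ranged from 7 to 10, the endothelial count from 4 to 7 and the microglia count from 4 to 7. The striatal count was 4 with the lane block, 4 with the replicate block, and 4 when control replicate 3 or 4 or mutant replicate 1 or 3 was left out. The choroid plexus count was 1 without any 1 control or mutant replicate 1 or 2, and 6 without mutant replicate 4. The defining marker of each list was detected in all 8 libraries, with Ttr lowest at 0.0664 CPM in control replicate 3.

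**Figure D4:**
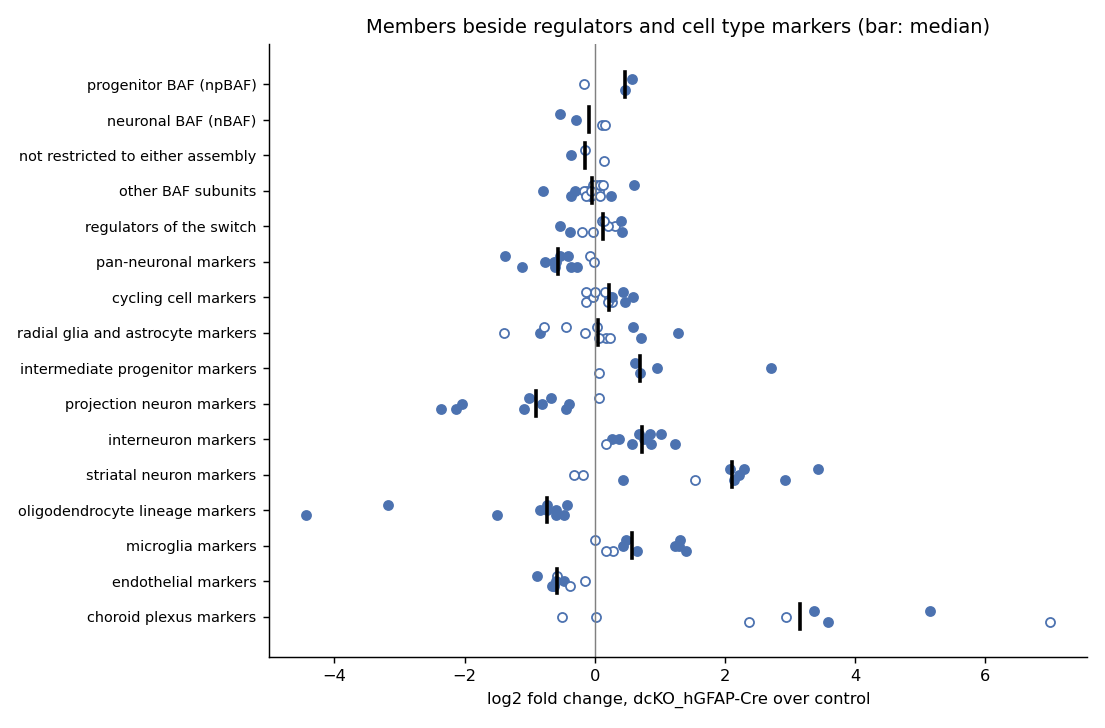
Log2 fold change of dcKO_hGFAP-Cre over control (x axis) for each tested gene of the members' 3 groups, the other BAF subunits, the regulators and the cell type markers (rows), with filled points for an adjusted p under 0.05 and a bar for the median. The medians of the progenitor (0.47) and neuronal (-0.08) members lie between those of the projection neuron (-0.90) and interneuron (0.72) markers.

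For the 3 members with the largest called changes, the protein-coding genes most alike over the 8 libraries were found by Pearson's correlation of log2 CPM among 14469 genes. These values are descriptions over libraries that share the genotype contrast. Ss18 was most like Grb7 (r = 0.99), a signalling adaptor, Isg15 (r = 0.983), an interferon-induced ubiquitin-like protein, and Pcdhb10 (r = 0.983), a clustered protocadherin. Actl6a was most like Oard1 (r = 0.99), Slc50a1 (r = 0.985) and Taf11 (r = 0.982), the last a subunit of the general transcription factor TFIID. Dpf3 was most like Prkg1 (r = 0.968), a cGMP-dependent kinase, Slc6a9 (r = 0.967), a glycine transporter, and Asxl3 (r = 0.966).

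**Figure D5:**
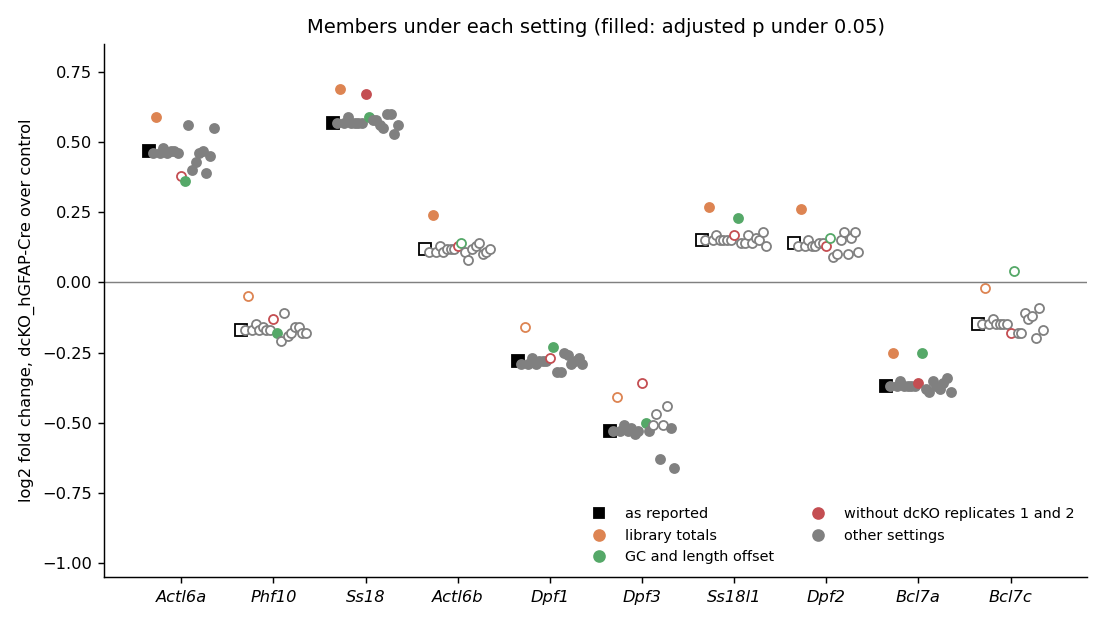
Log2 fold change of each member (y axis) as reported (black square) and under 18 alternatives (circles), with filled symbols for an adjusted p under 0.05. Ss18 (0.53 to 0.69) and Bcl7a (-0.39 to -0.25) stay filled throughout, Dpf3 turns open under 6 alternatives, and Bcl7c crosses 0 under the GC content and length offset.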

How the data were processed

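RNA was taken from the P3 cortex of 4 control and 4 dcKO_hGFAP-Cre mice. The authors prepared TruSeq RNA v2 libraries and aligned the reads to mm10. The deposited values are raw counts per gene from featureCounts. The aligner, the annotation, the strand setting and the treatment of reads shared by genes are not given in the sources used here. Replicate and lane numbers come from the labels. Nothing states that equal replicate numbers mark related mice, nor that each sample is a separate animal beyond the 4 and 4 named in the methods, so p-values measure the spread between these samples.

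Identifiers were matched to GENCODE vM21 (GRCm38, the same build as mm10), with 48349 of 48709 matched. Counts were tested with edgeR's quasi-likelihood F test (version 4.0.16, R 4.3.3) with TMM normalization, the filterByExpr filter (minimum count 10), no block and Benjamini-Hochberg adjustment over 16525 genes at a threshold of 0.05. Intervals are 95% intervals of the fit. CPM are TMM-normalized. Exact two-sided permutation tests used all 70 arrangements of single-gene CPM. Total counts ranged from 21126713 to 32110285, and counting error is largest for Dpf3. Alternatives were limma-voom (limma 3.58.1), DESeq2 (1.42.0), other scalings, filters, blocks and offsets, and left-out replicates. The scripts were tested on simulated data.

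The members, lists and alternatives were chosen with earlier results of these data known. Named genes are all members, the targeted genes, the defining marker and the lowest and highest called gene of each list, and the 3 genes most like each of 3 members. One gene that this rule names is not reported here. Other called BAF subunits and regulators, Bcl7b, Smarcd1, the overlapping genes and Gfap were named after their values were seen.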

Additional observations from a re-analysis of the deposited data

Results flagged for a closer look

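In each group of 4 libraries, the highest and the lowest value of the 10 members (CPM) and of the 6 log2 ratios were set against the others by Dixon's test. Of 32 groups, 3 held a value beyond the 95% critical value, where chance flags about 1 in 20 groups. Ss18l1 in control replicate 3 measured 132 CPM, with the other controls between 125 and 126 CPM. The log2 ratio of Actl6b over Actl6a in control replicate 1 was 2.51, below the 2.83 to 2.90 of the other controls. The log2 ratio of Dpf3 over Dpf2 in control replicate 4 was -2.43, below the -1.86 to -1.81 of the others. The last value lay within the range of the mutants.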

How the results depend on the processing

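Over 18 alternatives, the direction of each member held except for Bcl7c, which turned to 0.04 (adjusted p = 0.733) with the GC content and length offset. Ss18 and Bcl7a kept their calls throughout. With library totals, 1 member was lower and 5 higher, as Actl6b (0.24), Ss18l1 (0.27) and Dpf2 (0.26) became called and Dpf1 (-0.16) and Dpf3 (-0.41) lost their call. With the GC content and length offset, Phf10 (-0.18) and Ss18l1 (0.23) became called, and 4 other BAF subunits were higher. Without dcKO replicates 1 and 2 together, 1 member was lower and 1 higher, Actl6a (0.38), Dpf1 (-0.27) and Dpf3 (-0.36) were not called, 1 other BAF subunit was higher, and 1581 genes were lower and 1388 higher over all genes, with fewer samples. With each replicate left out in turn, Dpf3 ranged from -0.66 to -0.44 and 1 to 2 other BAF subunits were higher. Without the filter on low counts, 1 other BAF subunit was higher. The cause of these differences was not tested. Over all other lists together, 76 genes were called, and 56 to 83 under the alternatives. DESeq2, limma-voom, DESeq2's size factors, the lane block and the stricter filter changed no call of a member.

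With the longest transcript as length, control means of the log2 ratio moved to 2.29 (Actl6b over Actl6a), 2.67 (Ss18l1 over Ss18), 1.84 (Dpf1 over Phf10), 2.06 (Dpf1 over Dpf2) and -2.53 (Dpf3 over Dpf2). The length of a gene is the same in every library, so it cancels in the differences between groups, which could not move.

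The replicate block changed no call of a member (3 lower, 2 higher) and left 2 other BAF subunits lower and 1 higher and 2982 genes lower and 2932 higher. Deviations of same-numbered libraries correlated at 0.171, -0.068, 0.213 and -0.024 for replicates 1 to 4, and 1 of 4 mutants correlated best with its own number. Same-numbered libraries also shared a lane. So few libraries cannot tell whether equal numbers mark related mice, and the numbers are used here as names of the samples.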
